A study of Mus musculus with 20 samples.

Results

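The libraries described here hold the response to lipopolysaccharide (LPS) of mouse bone marrow-derived macrophages that had been grown in the presence of SGC0946, a small-molecule inhibitor of the histone methyltransferase DOT1L. They were chosen by their labels: 3 libraries of macrophages grown with SGC0946 and then given LPS (SGC0946+LPS, replicates 1 to 3) and 4 libraries of macrophages grown with SGC0946 and left without LPS (SGC0946, replicates 1 to 4), together 7 of the 20 libraries of the series. All cells came from C57BL/6 mice. Marrow was cultured for 7 to 8 days with 15% L929-conditioned medium, the source of macrophage colony-stimulating factor, and SGC0946 was present at 1 µM throughout this time. LPS of E. coli O111:B4 was given at 10 ng/mL for 3 h. Macrophages grown in the same way with the solvent DMSO, with LPS (DMSO+LPS, 3 libraries) or without it (DMSO, 4 libraries), served as the matching arm, and the 6 libraries of cells given the liver X receptor (LXR) agonist GW3965 entered only the shared estimate of the spread. The replicate number is the number of the mouse, so a culture with LPS and a culture without it share a donor for replicates 1 to 3. The inhibitor was given while the macrophages formed, and cultures that met it only after maturation were not analysed here.

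LPS, a component of the outer membrane of Gram-negative bacteria, is handed by CD14 to a receptor complex of TLR4 and MD-2. From there MyD88 and the IRAK kinases lead to NF-kB and AP-1 factors, which turn on cytokine and chemokine genes, and TRIF leads to IRF3 and interferon beta, whose secretion sets off a wave of interferon-stimulated genes through STAT factors. The response carries its own brakes, among them inhibitors of NF-kB, SOCS proteins, phosphatases and proteins that destroy cytokine mRNA. DOT1L, the target of SGC0946, methylates a lysine in the core of histone H3 over transcribed genes and is found with elongation factors of the MLL fusion partner families.

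Values below are counts per 1000000, scaled by the trimmed mean of M values (CPM), on 1 RefSeq transcript for each of 12013 genes that passed a filter on low counts. The gene tables summed to 11519350, 12125854 and 8174951 counts in the SGC0946+LPS libraries and to 9701795, 11474464, 9377928 and 12018625 counts in the SGC0946 libraries. Replicates were not equally alike. By the chi-square per gene of the counts of 2 libraries, SGC0946+LPS replicates 1 and 3 were at 4.33 and replicate 2 was at 9.90 and 10.59 from them; SGC0946 replicates 1 and 3 were at 6.07, 2 and 4 at 5.12, and the other pairs at 7.84 to 10.89. Pairs of the DMSO+LPS libraries were at 4.29 to 4.96, and pairs of the DMSO libraries at 3.09 to 6.08. Within the SGC0946 arm, replicate 2, and without LPS also 4, thus lay apart from 1 and 3 over the library as a whole, and the cause was not tested. Differences are log2 fold changes of SGC0946+LPS over SGC0946, tested with edgeR's quasi-likelihood test and Benjamini-Hochberg adjustment over all genes tested. The ± value beside a log2 change is its size divided by the square root of the test's F statistic, an approximate standard error. With few counts in a group it can be narrower than counting error alone. This holds for Il6, with 6 counts without LPS and a 95% counting interval of its ratio of 1684 to 9996. A gene is said to have risen or fallen where the adjusted p was under 0.05. By that rule 4296 genes rose, which is 35.8% of those tested, and 4666 fell, which is 38.8%. Of these, 1947 risers (16.2%) and 2175 fallers (18.1%) moved by at least 2-fold. Without replicates 2 and 4 in every group, 3957 genes rose and 4173 fell. For 8481 genes (70.6%) the libraries with and without LPS did not overlap. With calls this common, a list in which about 36% of the members rose stands near the background.

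The genes that rose 2-fold or more took 46.61% to 47.04% of all gene counts in the SGC0946+LPS libraries, against 13.31% to 14.24% in the SGC0946 libraries, and those that fell 2-fold or more took 1.67% to 1.75% against 9.08% to 9.32%. In the SGC0946+LPS libraries transcripts of 4 genes that were scarce without LPS stood among the 15 most abundant per unit length (RPKM, reads per kilobase and 1000000 reads, computed with library totals). Cxcl10 averaged 5294 ± 229 RPKM in the SGC0946+LPS libraries and 10.6 ± 5.18 RPKM in the SGC0946 libraries, and Acod1 averaged 2517 ± 80.6 RPKM against 8.26 ± 1.57 RPKM (SD, n = 3 and 4). The others, named after their values were seen, were the neighbouring antiviral genes Rsad2, at 4941 ± 226 RPKM against 50.8 ± 9.56 RPKM, and Cmpk2, at 2296 ± 73.1 RPKM against 20.1 ± 4.62 RPKM. Because so much of the library shifted, the scaling matters for small changes: dividing by library totals alone moved the median of all genes by -0.74 on the log2 scale, and 1823 of the 4296 risers then change sign. Risers smaller than about that size are therefore given below with this limit. At least 10% of the exon bases of Il27, Dusp3, Ptger4, Cd274, Tap2, Icam1, Serpinb2, Ch25h, Cebpd, Ctsd, Bcl2a1b, Gadd45a, Alox5ap and Csf1r, and of 3 genes marked below, overlap another annotated gene, so these counts are uncertain. Of the genes called, 47.9% were higher with the scaling used and 49.9% with DESeq2 size factors, against 31.9% with upper quartile scaling and 18.5% with library totals.

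**Figure D1:**
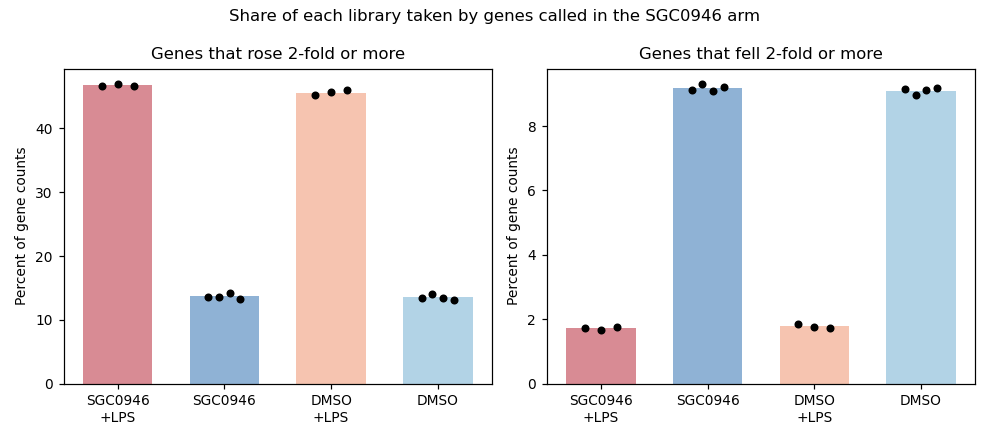
Percent of all gene counts in each library taken by genes that rose (left) or fell (right) 2-fold or more in the SGC0946 arm; bars are group means and points are libraries. The risers took 46.61% to 47.04% of the counts in the SGC0946+LPS libraries, and the 3 DMSO+LPS libraries lie close by, between 45.26% and 45.96%.

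The promoters of some of the strongest risers are printed here because they hold letters of the motifs read by NF-kB and by the factors of the interferon route. The choice fell on the largest rises with such a match among the risers with the smallest p of each list. Other list genes, such as Il6 and Il12b, were not candidates, so their absence here does not mean that they lack a match. Each line holds 250 bases upstream of a RefSeq transcript start (assembly GRCm38.p6), written 5′ to 3′ on the gene's own strand. Capitals mark a kappaB match, the motif read by NF-kB, or a match to the core of the interferon-stimulated response element (ISRE), GAAANNGAA, on either strand; matches that overlap are joined. The regions are chr5:92328080-92328329 on the minus strand for Cxcl9, chr5:92348890-92349139 on the minus strand for Cxcl10, chr1:174031756-174032005 on the minus strand for Ifi205, chr3:142496684-142496933 on the plus strand for Gbp5, chr16:10785537-10785786 on the minus strand for Socs1, chr5:114922990-114923239 on the plus strand for Oasl1 and chr5:90903649-90903898 on the plus strand for Cxcl2.
Cxcl9: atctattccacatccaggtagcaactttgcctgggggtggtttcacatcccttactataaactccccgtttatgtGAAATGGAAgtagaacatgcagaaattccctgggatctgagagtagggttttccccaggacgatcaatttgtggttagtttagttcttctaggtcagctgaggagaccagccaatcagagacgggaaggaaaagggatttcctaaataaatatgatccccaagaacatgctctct
Cxcl10: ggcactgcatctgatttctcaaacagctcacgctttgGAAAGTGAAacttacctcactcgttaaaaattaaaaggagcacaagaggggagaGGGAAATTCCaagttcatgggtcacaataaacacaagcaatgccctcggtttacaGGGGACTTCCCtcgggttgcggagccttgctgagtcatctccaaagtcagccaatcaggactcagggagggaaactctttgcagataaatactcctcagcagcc
Ifi205: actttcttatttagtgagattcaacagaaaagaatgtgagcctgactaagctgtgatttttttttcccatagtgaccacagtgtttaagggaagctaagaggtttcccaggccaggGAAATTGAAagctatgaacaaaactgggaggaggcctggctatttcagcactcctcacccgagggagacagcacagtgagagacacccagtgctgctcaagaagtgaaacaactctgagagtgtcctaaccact
Gbp5: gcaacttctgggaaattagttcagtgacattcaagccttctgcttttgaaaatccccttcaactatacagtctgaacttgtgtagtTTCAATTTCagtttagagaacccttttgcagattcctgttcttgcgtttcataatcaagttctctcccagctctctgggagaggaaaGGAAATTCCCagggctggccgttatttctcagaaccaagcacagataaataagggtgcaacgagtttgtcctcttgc
Socs1: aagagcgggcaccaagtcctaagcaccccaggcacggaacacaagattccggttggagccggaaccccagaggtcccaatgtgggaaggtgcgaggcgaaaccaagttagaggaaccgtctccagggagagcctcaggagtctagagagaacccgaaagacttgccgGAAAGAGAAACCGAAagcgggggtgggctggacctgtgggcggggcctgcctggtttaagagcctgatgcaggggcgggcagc
Oasl1: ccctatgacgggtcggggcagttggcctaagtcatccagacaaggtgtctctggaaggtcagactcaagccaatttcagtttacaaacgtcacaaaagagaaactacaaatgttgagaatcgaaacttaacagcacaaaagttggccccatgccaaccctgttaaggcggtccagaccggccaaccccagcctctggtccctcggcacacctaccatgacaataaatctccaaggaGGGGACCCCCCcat
Cxcl2: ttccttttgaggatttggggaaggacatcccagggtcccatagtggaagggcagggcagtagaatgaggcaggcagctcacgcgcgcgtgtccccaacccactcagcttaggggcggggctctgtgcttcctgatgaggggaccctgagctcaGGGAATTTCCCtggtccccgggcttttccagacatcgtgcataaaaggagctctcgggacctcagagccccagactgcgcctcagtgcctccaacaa

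Cxcl10 carried an ISRE core from 213 to 205 bases before its start, a kappaB match from 159 to 150 and a pair of overlapping kappaB matches from 104 to 94. Gbp5 held an ISRE core from 164 to 156 and a kappaB match from 77 to 68, both on the minus strand. Cxcl9 (175 to 167), Ifi205 (134 to 126) and Socs1 (2 overlapping cores, 83 to 69) had ISRE cores alone, and Cxcl2 (97 to 87) and Oasl1 (14 to 4) had kappaB matches alone. Across lists, the ISRE core lay in the window of 9 of the 9 guanylate-binding and immunity-related GTPase genes with a window and of 12 of 24 interferon-stimulated genes, against 7.60% of the 9644 genes tested that have a window and 7.13% of all 32851 windows. The kappaB motif lay in 8 of 13 genes of NF-kB subunits and inhibitors, 4 of 8 CXC chemokine genes and 6 of 18 early cytokine genes, but in 1 of 7 CC chemokine genes, where the ISRE core also lay in 1 of 7, against 2 of 28 cell cycle genes, 10.59% of the genes tested and 7.25% of all windows. Among all genes that rose 2-fold or more, 12.57% held the ISRE core and 13.80% the kappaB motif, compared with 5.92% and 9.99% of those that fell 2-fold or more. A match is a run of letters and not a site shown to be bound, and a gene without one may be served from outside the window.

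Early cytokine genes rose almost as a block. Of 24 tested, 22 rose, all by 2-fold or more, 1 fell and 1 did not pass, with a median log2 change of 6.63 (6.44 with Il12a and Il19, which had no counts in any SGC0946 library, set at the bound that 3 counts allow), against -0.07 over all genes tested. Tnf, which encodes tumor necrosis factor, had 2440, 2525 and 2244 CPM in the SGC0946+LPS libraries, against 4.69, 3.50, 7.94 and 4.56 CPM in the SGC0946 libraries. Tnfsf15, a TNF-family ligand that costimulates lymphocytes, had 1088, 937 and 1182 CPM with SGC0946+LPS, against 3.65, 4.47, 4.51 and 4.42 CPM with SGC0946 alone. Both had been low before LPS, and every library with LPS lay far above every library without it. Il6, the fever and acute-phase cytokine, was close to absent without LPS, at 473, 353 and 516 CPM in the SGC0946+LPS libraries, against 0.0868, 0, 0.0903 and 0.285 CPM in the SGC0946 libraries. Il27, which encodes a subunit of a cytokine that acts on T cells, had 295, 253 and 248 CPM with SGC0946+LPS, against 0.347, 0.373, 0.271 and 0.641 CPM with SGC0946 alone. Il15, a survival factor for natural killer cells, started from a higher level, at 458, 498 and 414 CPM in the SGC0946+LPS libraries, against 16.4, 17.5, 15.8 and 19.2 CPM in the SGC0946 libraries. The log2 changes were 8.88 ± 0.17 for Tnf, 7.96 ± 0.10 for Tnfsf15, 11.73 ± 0.23 for Il6, 9.27 ± 0.16 for Il27 and 4.72 ± 0.09 for Il15, with the largest adjusted p at 3.42e-18 (Il6). Without replicate 4 of the SGC0946 libraries, which held most of the Il6 counts of that group, the Il6 change was 12.7.

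Il12b, which encodes the shared subunit of interleukin 12 and interleukin 23, also rose, but with an unequal spread among the mice, at 289, 975 and 296 CPM in the SGC0946+LPS libraries, against 0.174, 0.298, 0.451 and 0.499 CPM in the SGC0946 libraries, a log2 change of 10.46 ± 0.71 (adjusted p = 1.20e-11). Replicate 2 was over 3 times as high as replicates 1 and 3, and without that library the change was 9.62. Il1b and the next 2 genes are named after their values were seen, and Il1b had 984, 742 and 1154 CPM with SGC0946+LPS, against 1.303, 2.68, 1.26 and 3.21 CPM with SGC0946 alone. The anti-inflammatory Il10 had 15.98, 6.50 and 11.3 CPM in the SGC0946+LPS libraries, against 2.08, 1.34, 1.35 and 0.998 CPM in the SGC0946 libraries, a log2 change of 2.97 ± 0.29. Interferon beta mRNA was sparse after 3 h, as the Ifnb1 transcript had 159 counts over the 3 SGC0946+LPS libraries and 2 over the 4 SGC0946 libraries, a ratio of 177.9 (95% counting interval 48.4 to 1482); both SGC0946 counts came from replicate 2. The faller of the list was Vegfa, a growth factor for blood vessels, at 11.96, 21.2 and 9.91 CPM with SGC0946+LPS, against 79.5, 102, 90.2 and 116 CPM with SGC0946 alone, and Osm, an IL-6 family cytokine, did not pass (log2 0.03 ± 0.19, adjusted p = 0.91). Counts were too few to test the transcripts of Csf2, Csf3, Lif and Il23a; Il23a had 6, 3 and 15 counts in the SGC0946+LPS libraries and none in the SGC0946 libraries.

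**Figure D2:**
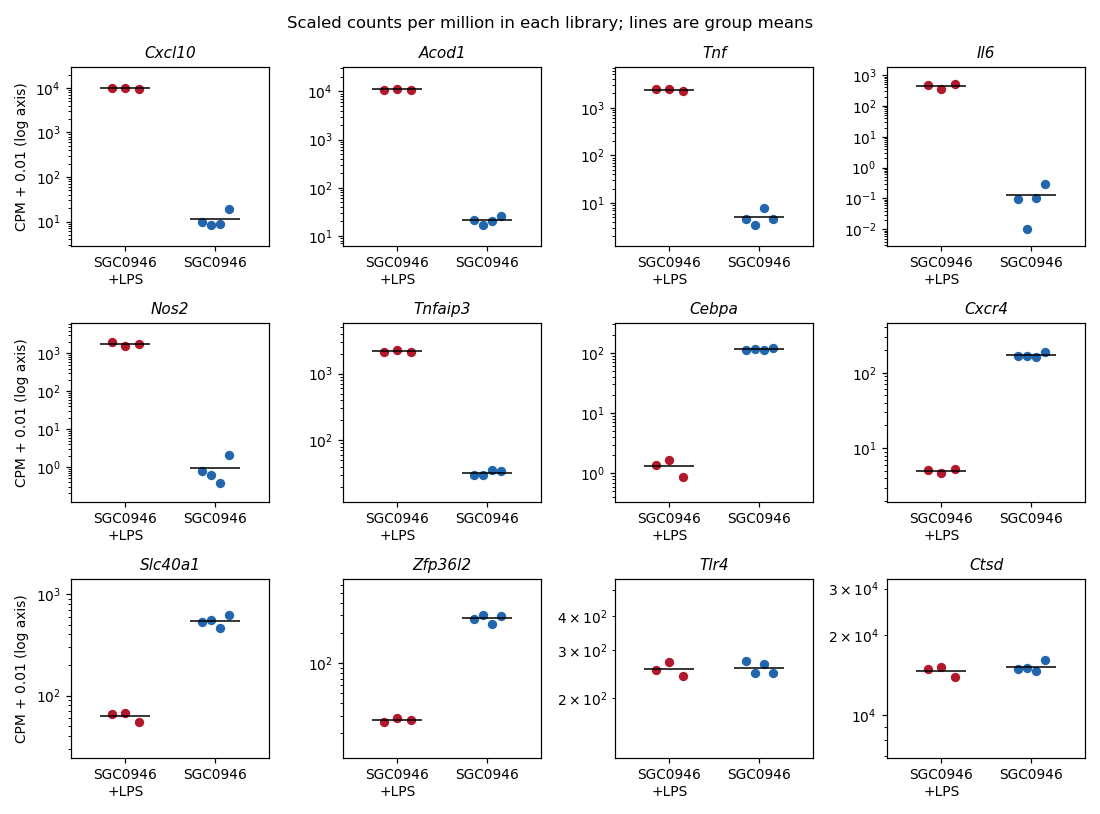
CPM (plus 0.01, log axis) of 12 genes in each SGC0946+LPS library (left in each panel) and SGC0946 library (right); lines are group means. The 6 genes from Cxcl10 to Tnfaip3 are higher in every library with LPS, the 4 from Cebpa to Zfp36l2 are lower in every library with LPS, and for Tlr4 and Ctsd the groups overlap.

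Chemokine genes behaved alike. Of 10 CXC chemokine genes tested 9 rose and 1 did not pass (median log2 change 7.39), and all 12 CC chemokine genes rose (median 6.39, or 5.95 with Ccl17, at 0 in every SGC0946 library, at its bound). One riser of each family changes sign under library totals. Cxcl10, a ligand of CXCR3 that draws T cells, had 10080, 9873 and 9466 CPM in the SGC0946+LPS libraries, against 9.55, 8.12, 8.85 and 19.5 CPM in the SGC0946 libraries. Cxcl9, a second ligand of CXCR3, had 1040, 753 and 1099 CPM with SGC0946+LPS, against 0.434, 0.298, 0.632 and 0.855 CPM with SGC0946 alone. Cxcl2, a neutrophil attractant, had 223, 172 and 238 CPM in the SGC0946+LPS libraries, against 1.22, 1.12, 1.35 and 1.71 CPM in the SGC0946 libraries. Cxcl10 without LPS was highest in replicate 4, and even that library lay far below every library with LPS. Cxcl11 had 3884 counts in the SGC0946+LPS libraries and 3 in the SGC0946 libraries, a ratio of 2897 (95% counting interval 990.5 to 14053), and 41.7% of its exon bases overlap another annotated gene on the opposite strand. Of the CC ligands, Ccl5 had 1645, 1823 and 1192 CPM in the SGC0946+LPS libraries, against 6.69, 7.08, 5.60 and 7.84 CPM in the SGC0946 libraries. Ccl3, a ligand of CCR1, had 2651, 2064 and 2497 CPM with SGC0946+LPS, against 51.0, 34.4, 51.0 and 46.3 CPM with SGC0946 alone. Ccl5 was lowest in replicate 3 and Ccl3 in replicate 2, so the libraries with LPS kept no common order. The monocyte attractants Ccl12 and Ccl8 changed by 6.81 ± 0.18 and 5.67 ± 0.16 on the log2 scale. The largest adjusted p among the 7 tested chemokine genes named as risers was 1.84e-18, for Ccl8. Cxcl14 did not pass, with 3.90, 4.33 and 3.59 CPM in the SGC0946+LPS libraries, against 2.87, 3.28, 4.06 and 4.28 CPM in the SGC0946 libraries.

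Every interferon-stimulated gene tested was higher with LPS. All 35 type I interferon-stimulated genes tested rose, each by 2-fold or more (median log2 change 4.09), and so did all 15 guanylate-binding and immunity-related GTPases (median 5.57, also with Gbp10 at its bound). Ifi205, of the PYHIN family of DNA-binding proteins, had 1036, 1148 and 1182 CPM in the SGC0946+LPS libraries, against 2.26, 2.24, 3.34 and 3.14 CPM in the SGC0946 libraries. Oasl1, an oligoadenylate synthetase-like protein that restrains IRF7 translation, had 954, 1072 and 982 CPM with SGC0946+LPS, against 6.43, 6.18, 8.39 and 4.99 CPM with SGC0946 alone. Mx2, a dynamin-like antiviral GTPase, had 539, 529 and 554 CPM in the SGC0946+LPS libraries, against 6.17, 4.10, 5.78 and 5.35 CPM in the SGC0946 libraries. Libraries of the same group lay within a factor of 2 of each other for all 3. Isg20, an exonuclease against viral RNA, changed by 5.74 ± 0.17 on the log2 scale. Of the GTPases that attack the vacuoles of intracellular pathogens, Gbp5 had 4201, 5111 and 4398 CPM in the SGC0946+LPS libraries, against 16.1, 19.4, 12.8 and 21.6 CPM in the SGC0946 libraries. Gbp2 had 3675, 3921 and 3704 CPM with SGC0946+LPS, against 52.9, 63.3, 57.9 and 69.3 CPM with SGC0946 alone. Gbp4 and Gbp9 changed by 7.36 ± 0.18 and 4.17 ± 0.13. All were called with adjusted p of 7.27e-18 or less for the GTPases and 6.24e-18 or less for the other interferon-stimulated genes named. Members of both families have close paralogs, and how reads shared by paralogs were assigned is not given in the sources used here.

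Genes for sensing LPS and other microbial products changed in both directions. Of 28 receptors and adaptors tested, 21 rose and 6 fell, with a median log2 change of 0.57; 12 rose by 2-fold or more, and 9 of the 21 change sign under library totals. Tlr4 itself had 253, 271 and 241 CPM in the SGC0946+LPS libraries, against 273, 247, 266 and 247 CPM in the SGC0946 libraries, and its log2 change was -0.02 ± 0.06 (adjusted p = 0.809); upper quartile scaling called it lower (-0.32, adjusted p = 0.000101), as did library totals (-0.76). Its co-receptor Cd14 rose, at 1473, 1778 and 1338 CPM with SGC0946+LPS, against 139.8, 137, 125 and 138 CPM with SGC0946 alone. Ripk2, the kinase that carries NOD1 and NOD2 signals, had the largest rise of the 4 members named, at 714, 699.7 and 644 CPM in the SGC0946+LPS libraries, against 14.6, 13.8, 15.6 and 13.5 CPM in the SGC0946 libraries. Irak2, a kinase that sustains MyD88 signalling, and Ikbke, a kinase of IRF3 and IRF7, rose by 3.26 ± 0.07 and 2.40 ± 0.06 on the log2 scale (largest adjusted p 2.95e-19, for Cd14). Tlr13, a receptor for bacterial ribosomal RNA, fell, at 150.3, 129.5 and 170.3 CPM with SGC0946+LPS, against 347, 301, 367 and 308 CPM with SGC0946 alone (log2 -1.14 ± 0.10). Irak4, the kinase at the start of the MyD88 cascade, fell by 0.79 ± 0.08 on the log2 scale.

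Among NF-kB subunits and inhibitors 16 of 17 tested rose (median 2.89), of which 2 change sign under library totals, and 1 fell. The 4 with the smallest p were an activating subunit and 3 that modify or restrain the pathway. Nfkbia, the inhibitor that traps NF-kB in the cytoplasm, had 1177, 1352 and 1164 CPM in the SGC0946+LPS libraries, against 34.2, 34.6, 31.5 and 36.9 CPM in the SGC0946 libraries. Tnfaip3, a ubiquitin-editing inhibitor, had 2149, 2290 and 2141 CPM with SGC0946+LPS, against 29.5, 30.03, 35.5 and 34.8 CPM with SGC0946 alone. Nfkbiz, a nuclear co-regulator needed for secondary response genes such as Il6, had 1110, 1296 and 1099 CPM in the SGC0946+LPS libraries, against 10.2, 10.7, 10.8 and 10.2 CPM in the SGC0946 libraries. The spread among libraries was small for all 3, and the changes were 5.16 ± 0.07, 6.08 ± 0.10 and 6.80 ± 0.09 on the log2 scale. Nfkb1, the precursor of the p50 subunit, rose by 3.12 ± 0.05 (largest adjusted p of the 4 2.28e-22, for Tnfaip3). Ikbkg, the regulatory subunit of the IKK complex, fell, at 55.5, 65.7 and 54.7 CPM in the SGC0946+LPS libraries, against 73.6, 75.7, 69.2 and 76.1 CPM in the SGC0946 libraries (log2 -0.33 ± 0.06, adjusted p = 9.21e-05).

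Other transcription factors changed in both directions. Of 24 AP-1, EGR and CREB-family factors and related genes tested 11 rose, 8 fell and 5 did not pass, not far from the shares of all genes tested (35.8% and 38.8%). Batf2, an AP-1 partner of IRF1, had 194, 199 and 214 CPM in the SGC0946+LPS libraries, against 3.13, 5.22, 4.06 and 3.99 CPM in the SGC0946 libraries. Nr4a3, an orphan nuclear receptor of the immediate response, had 99.0, 82.4 and 121 CPM with SGC0946+LPS, against 0.347, 0.0745, 0.451 and 0.356 CPM with SGC0946 alone. Klf6 and Junb rose by 2.49 ± 0.06 and 2.38 ± 0.08. Klf2, a factor that restrains inflammatory activation, went the other way, at 4.88, 6.86 and 3.76 CPM with SGC0946+LPS, against 17.7, 22.1, 17.1 and 21.2 CPM with SGC0946 alone, and Maf fell by 0.68 ± 0.08 on the log2 scale. Jun narrowly missed, at 179, 181 and 156 CPM in the SGC0946+LPS libraries, against 162, 146, 155 and 143 CPM in the SGC0946 libraries (adjusted p = 0.0508); with the mouse as a block its adjusted p was 0.0428. It also passed without SGC0946+LPS replicate 3 (0.0193), SGC0946 replicate 1 (0.0334) or DMSO+LPS replicate 3 (0.0487), each an adjusted p of edgeR's test. Of 15 IRF and STAT factors 12 rose, all by 2-fold or more, and 2 fell. Irf1, an early interferon-regulatory factor, had 2335, 2722 and 2376 CPM with SGC0946+LPS, against 86.3, 81.8, 71.6 and 96.4 CPM with SGC0946 alone. Stat5a had 488, 565 and 506 CPM in the SGC0946+LPS libraries, against 29.1, 33.1, 33.5 and 31.7 CPM in the SGC0946 libraries, and Irf8, needed for the macrophage lineage, rose by 2.73 ± 0.06. Irf4, linked to alternative activation, fell, at 3.29, 2.04 and 3.42 CPM in the SGC0946+LPS libraries, against 8.08, 7.68, 7.31 and 6.70 CPM in the SGC0946 libraries. Stat6, the mediator of interleukin 4 signals, did not pass (log2 -0.07 ± 0.05). Of the factors called and named here, the largest adjusted p was 2.29e-07, for Maf.

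Most of the brakes rose with the response. Of 21 SOCS and phosphatase genes tested 14 rose and 5 fell (median log2 change 1.71). Socs3, which blunts IL-6 receptor signalling, had 1327, 1391 and 1206 CPM in the SGC0946+LPS libraries, against 8.68, 14.2, 7.58 and 13.8 CPM in the SGC0946 libraries. Socs1, which inhibits JAK kinases below the interferon receptors, had 241, 208 and 175 CPM with SGC0946+LPS, against 1.303, 0.596, 1.08 and 1.07 CPM with SGC0946 alone. Socs7 and Dusp16, a phosphatase of JNK and p38, rose by 3.02 ± 0.06 and 3.84 ± 0.10. Socs6 fell, at 31.6, 27.2 and 25.6 CPM in the SGC0946+LPS libraries, against 133, 134, 116 and 127 CPM in the SGC0946 libraries, and so did Dusp3, by 0.98 ± 0.05 on the log2 scale. Of 15 mRNA decay factors 9 rose and 6 fell, and close relatives parted. Zfp36 (tristetraprolin), which directs cytokine mRNA to decay, had 542, 563 and 574 CPM with SGC0946+LPS, against 73.6, 81.1, 71.7 and 80.3 CPM with SGC0946 alone. Its relatives Zfp36l1 and Zfp36l2 bind like elements but fell, with 25.9, 28.1 and 27.0 CPM in the SGC0946+LPS libraries, against 276, 302, 243 and 294 CPM in the SGC0946 libraries for Zfp36l2. The Zfp36l1 transcript had 10.2, 7.34 and 9.56 CPM with SGC0946+LPS, against 127, 190.5, 137 and 178 CPM with SGC0946 alone; 55.9% of its exon bases overlap another annotated gene on the opposite strand. Zc3h12a (Regnase-1), an endonuclease against cytokine mRNA, and its relative Zc3h12c rose by 2.74 ± 0.07 and 3.85 ± 0.08. All of these were called, with the largest adjusted p at 1.70e-13 (Dusp3).

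Of 10 genes for arginine, nitric oxide and itaconate tested 8 rose, all by 2-fold or more, and 1 fell. Nos2, the inducible nitric oxide synthase, had 2031, 1579 and 1817 CPM in the SGC0946+LPS libraries, against 0.782, 0.596, 0.361 and 2.07 CPM in the SGC0946 libraries, a log2 change of 10.81 ± 0.22 (11.57 without SGC0946 replicate 4). Acod1, which makes itaconate from cis-aconitate, had 10660, 11390 and 10950 CPM with SGC0946+LPS, against 21.5, 17.3, 20.1 and 25.6 CPM with SGC0946 alone. Slc7a2, an arginine transporter, and Gch1, which makes the tetrahydrobiopterin that nitric oxide synthase needs, rose by 5.67 ± 0.19 and 3.46 ± 0.11. Asl, which returns citrulline to arginine, did not pass, with 45.1, 43.8 and 44.9 CPM in the SGC0946+LPS libraries, against 45.2, 43.4, 50.8 and 41.1 CPM in the SGC0946 libraries. Of 15 genes of prostaglandin and leukotriene synthesis 5 rose, 6 fell and 4 did not pass, which is near the shares of all genes tested (35.8% and 38.8%). Ptgs2 (cyclooxygenase 2) had 1399, 1134 and 1427 CPM with SGC0946+LPS, against 0.868, 0.149, 0.903 and 1.43 CPM with SGC0946 alone. Ptges, which turns its product into prostaglandin E2, had 12.4, 22.1 and 13.2 CPM in the SGC0946+LPS libraries, against 1.13, 0.373, 0.722 and 1.28 CPM in the SGC0946 libraries, a log2 change of 4.17 ± 0.26 (3.57 without replicate 2 in every group). Pla2g4a, the phospholipase that frees arachidonate, and the prostaglandin receptor gene Ptger4 rose by 2.74 ± 0.13 and 2.36 ± 0.12. Hpgds, which makes prostaglandin D2 instead, fell, at 234, 197 and 213 CPM in the SGC0946+LPS libraries, against 309, 295, 294 and 287 CPM in the SGC0946 libraries, and Alox5ap, needed for leukotrienes, did not pass (log2 -0.12 ± 0.06), though it did without SGC0946+LPS replicate 2 (-0.19, adjusted p of edgeR's test 0.0136). Of these called genes the largest adjusted p was 7.70e-08, for Hpgds.

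Glucose uptake and glycolysis genes rose in 10 of 19 cases, fell in 1 and did not pass in 8. The median log2 change was 0.34, and the sign of that median turns under library totals (-0.40). Slc2a6, a hexose transporter of lysosomal membranes, had 781, 906 and 668 CPM in the SGC0946+LPS libraries, against 33.8, 20.3, 30.6 and 25.7 CPM in the SGC0946 libraries. Pfkfb3, which makes an activator of glycolysis, had 192, 198 and 167 CPM with SGC0946+LPS, against 26.7, 32.2, 27.4 and 34.3 CPM with SGC0946 alone. Hif1a rose by 1.31 ± 0.05, while the glycolytic enzyme gene Aldoa had 1027, 1153 and 1063 CPM in the SGC0946+LPS libraries, against 976, 1038, 1025 and 1042 CPM in the SGC0946 libraries and did not pass. Of 22 genes for oxidant defence and metal handling 10 rose, 2 of which change sign under library totals, and 8 fell. These shares are not far from those of all genes tested (35.8% and 38.8%). Sod2, the mitochondrial superoxide dismutase, had 1093, 1398 and 1100 CPM with SGC0946+LPS, against 51.9, 50.5, 51.3 and 43.3 CPM with SGC0946 alone. Slc39a14, an importer of zinc and iron, had 80.8, 94.9 and 77.7 CPM in the SGC0946+LPS libraries, against 14.3, 15.4, 13 and 14.8 CPM in the SGC0946 libraries. Slc40a1 (ferroportin), the only known cellular iron exporter of mammals, moved the other way, at 66.1, 67.6 and 55.3 CPM with SGC0946+LPS, against 534, 558, 465 and 618 CPM with SGC0946 alone. The importer was higher and the exporter lower in every library with LPS. Hmox1, which breaks down heme, fell by 1.51 ± 0.08 and Gclc, of glutathione synthesis, by 1.71 ± 0.14 on the log2 scale. Slc7a11, the cystine importer, rose by 4.13 ± 0.17. Adjusted p was 3.85e-10 (Gclc) or less for the genes of this paragraph called as changed.

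Of 13 inflammasome and pyroptosis genes 10 rose and 3 fell (median log2 change 2.63). Nlrp3, the sensor of the NLRP3 inflammasome, had 635, 713 and 675 CPM in the SGC0946+LPS libraries, against 51.1, 54.1, 48.9 and 52.3 CPM in the SGC0946 libraries. Nod2 and Nod1, sensors of peptidoglycan fragments, rose by 3.98 ± 0.08 and 4.45 ± 0.09, and Casp1 by 2.63 ± 0.06. Nlrc4, a sensor platform for flagellin, fell, at 5.61, 5.77 and 5.81 CPM with SGC0946+LPS, against 8.95, 9.02, 8.39 and 10.3 CPM with SGC0946 alone (adjusted p = 2.11e-05). Of 13 costimulatory and inhibitory surface molecules 11 rose by 2-fold or more and 2 fell. Cd40, through which T cells activate macrophages, had 1202, 1423 and 1227 CPM in the SGC0946+LPS libraries, against 1.74, 2.38, 3.16 and 3.42 CPM in the SGC0946 libraries. Cd69, an early activation marker of leukocytes, had 3476, 3527 and 3467 CPM with SGC0946+LPS, against 3.65, 3.35, 4.33 and 7.34 CPM with SGC0946 alone. Cd274 (PD-L1), which inhibits T cells, had 2956, 3563 and 3175 CPM in the SGC0946+LPS libraries, against 92.5, 101, 105 and 109.8 CPM in the SGC0946 libraries. Stimulating and inhibiting molecules were thus both higher in every library with LPS, and Slamf7 rose as well, by 3.64 ± 0.07. Cd200r1, an inhibitory receptor of myeloid cells, fell, at 82.0, 64.6 and 82.0 CPM with SGC0946+LPS, against 159.7, 151, 152 and 153 CPM with SGC0946 alone (adjusted p = 1.10e-12).

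All 14 genes of MHC class I processing rose (median log2 change 1.82), 1 of which changes sign under library totals. Tap1, a subunit of the peptide transporter, had 788, 848 and 734 CPM in the SGC0946+LPS libraries, against 92.8, 101, 106 and 100 CPM in the SGC0946 libraries. Tap2 and the proteasome activator Psme2 rose by 2.26 ± 0.06 and 2.5 ± 0.09. MHC class II genes moved less: 7 of 11 rose, only 1 by 2-fold or more, and 4 of the 7 change sign under library totals. Ciita, the master activator of class II genes, had 49.7, 74.5 and 62.2 CPM with SGC0946+LPS, against 9.12, 13.6, 12.7 and 14.3 CPM with SGC0946 alone. Cd74, the invariant chain, had 441, 692 and 558 CPM in the SGC0946+LPS libraries, against 206, 315, 281 and 354 CPM in the SGC0946 libraries, a log2 change of 0.96 ± 0.19; with library totals it was 0.22 and did not pass (adjusted p = 0.259). The separation for Cd74 was narrow, with replicate 1 lowest in both groups. Ifi30, a thiol reductase of the class II pathway, did not pass (log2 0.02 ± 0.05). Among adhesion genes 11 of 16 rose and 2 fell. Icam1, a ligand of leukocyte integrins, had 3953, 4695 and 4034 CPM with SGC0946+LPS, against 109, 114, 99.7 and 123.3 CPM with SGC0946 alone. Vcam1, which lets integrin-bearing cells adhere, had 149.5, 168 and 163 CPM in the SGC0946+LPS libraries, against 0.174, 0.0745, 0.0903 and 0.356 CPM in the SGC0946 libraries, a log2 change of 9.71 ± 0.18 (10.35 without SGC0946 replicate 4). Itgav and Cd44 rose by 3.68 ± 0.08 and 2.43 ± 0.08, and Itgb3 fell by 0.84 ± 0.16 on the log2 scale (adjusted p = 5.84e-05).

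Of 15 matrix protease and inhibitor genes 8 rose, all by 2-fold or more, and 3 fell. Mmp13, a collagenase, had 4591, 3997 and 4711 CPM in the SGC0946+LPS libraries, against 33.8, 25.6, 43.1 and 33.1 CPM in the SGC0946 libraries. Adamts4, an aggrecan-cleaving protease, had 158, 137 and 154 CPM with SGC0946+LPS, against 0.174, 0.149, 0.271 and 0.499 CPM with SGC0946 alone. Every library with LPS lay above every library without it for both. Plau (urokinase), which activates plasminogen, fell, at 25.8, 19.7 and 27.8 CPM with SGC0946+LPS, against 64.0, 73.3, 93.2 and 81.9 CPM with SGC0946 alone (adjusted p = 9.02e-07). Serpinb2, an inhibitor of urokinase, had 759 counts in the SGC0946+LPS libraries and 1 in the SGC0946 libraries, a ratio of 1698 (95% counting interval 303.9 to 67165), and the single count came from replicate 3.

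Receptors for cytokines rose in 15 of 24 cases, 2 of which change sign under library totals, and fell in 6. Il15ra, which presents interleukin 15, had 184, 200.5 and 196 CPM in the SGC0946+LPS libraries, against 4.69, 4.17, 3.70 and 3.99 CPM in the SGC0946 libraries. Tnfrsf1b rose by 2.14 ± 0.08. Il6ra, the receptor of the strongly induced Il6, fell, at 8.66, 9.50 and 5.64 CPM with SGC0946+LPS, against 97.5, 133, 88.7 and 116 CPM with SGC0946 alone. Receptors for chemoattractants split into 7 risers, 6 fallers and 2 that did not pass, and 2 of the risers change sign under library totals. Over all genes tested 35.8% rose and 38.8% fell, which is not far from this split. Ccrl2, which binds chemerin, had 846, 825 and 732 CPM in the SGC0946+LPS libraries, against 11.98, 13.7, 13.99 and 15.4 CPM in the SGC0946 libraries. Fpr2 and Fpr1, receptors for formylated bacterial peptides, changed by 6.61 ± 0.27 and 6.12 ± 0.21, and the complement receptor gene C5ar1 by 1.75 ± 0.11. Cxcr4, the receptor that holds cells in the marrow, had 5.12, 4.69 and 5.29 CPM with SGC0946+LPS, against 167, 168, 164 and 187 CPM with SGC0946 alone. S1pr1, which leads cells out of tissues, had 4.76, 4.21 and 3.76 CPM in the SGC0946+LPS libraries, against 64.8, 59.5, 69.9 and 57.1 CPM in the SGC0946 libraries. Ccr2, the receptor for CCL2 and CCL12, had 6.47, 6.98 and 5.81 CPM with SGC0946+LPS, against 27.6, 35.2, 21.5 and 38.3 CPM with SGC0946 alone. Each of these 3 was lower in every library with LPS. P2ry6, a receptor for UDP, fell by 1.27 ± 0.08. Of the receptors called, the largest adjusted p was 2.06e-08, for Ccr2.

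Scavenger and C-type lectin receptors rose in 8 of 17 cases, 2 of which change sign under library totals, and fell in 4. Over all genes tested 35.8% rose and 38.8% fell. Clec4e (Mincle), which senses mycobacterial glycolipid, had 2445, 2928 and 2532 CPM in the SGC0946+LPS libraries, against 40.8, 47.7, 41.3 and 47.1 CPM in the SGC0946 libraries. Msr1, the class A scavenger receptor, rose by 2.65 ± 0.11. Cd163, the receptor for haptoglobin and hemoglobin, had 4.27, 5.77 and 3.76 CPM with SGC0946+LPS, against 14.1, 20.7, 14.98 and 20.8 CPM with SGC0946 alone, and Clec7a (Dectin-1), a receptor for beta-glucan, fell by 0.89 ± 0.10. Complement genes rose in 9 of 11 cases, though 6 of the 9 change sign under library totals. C3 had 3305, 3625 and 3289 CPM in the SGC0946+LPS libraries, against 82.0, 87.3, 78.2 and 87.7 CPM in the SGC0946 libraries. Cfb had 148, 174 and 146 CPM with SGC0946+LPS, against 3.47, 3.50, 3.25 and 3.21 CPM with SGC0946 alone; 79.5% of its exon bases overlap another annotated gene on the same strand. C1qb rose by 0.49 ± 0.08, with a change of -0.25 under library totals. The adjusted p was 1.26e-05 (C1qb) or less for those called.

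The split of replicates 1 and 3 from 2 and 4 in the SGC0946 arm, described above for whole libraries, was seen in genes of lipid balance among others; Scd2 and Apoe are shown for it partly after their values were seen. Scd2, a fatty acid desaturase and LXR target, had 279, 141 and 277 CPM in the SGC0946+LPS libraries, against 931, 483, 906 and 531 CPM in the SGC0946 libraries. The same gene had 298.6, 284.8 and 278.7 CPM in the DMSO+LPS libraries, against 901.6, 987.7, 983.5 and 1222 CPM in the DMSO libraries. Apoe, a lipoprotein made by macrophages, had 693, 1076 and 656 CPM with SGC0946+LPS, against 761, 1146, 664 and 1061 CPM with SGC0946 alone, with replicate 2, and without LPS also 4, on the high side here. Apoe did not pass (log2 -0.17 ± 0.20, adjusted p = 0.45). The fall of Scd2 was nearly equal in each mouse, at -1.74, -1.77 and -1.71 on the log2 scale for mice 1, 2 and 3. Of 24 cholesterol biosynthesis genes 8 rose, 4 of which change sign under library totals, 5 fell and 11 did not pass. Over all genes tested 35.8% rose and 38.8% fell, so the risers of this list are near that share and its fallers below it. The regulators Srebf2 and Insig1 rose by 0.82 ± 0.09 and 0.75 ± 0.15; with library totals the change was 0.08 for Srebf2 and 0.01 for Insig1. Dhcr7, the last enzyme of a branch of the pathway, fell, at 19.6, 11.6 and 17.4 CPM with SGC0946+LPS, against 50.2, 30.2, 39.7 and 32.9 CPM with SGC0946 alone. Mvd, an enzyme of its early part, fell by 1.01 ± 0.15. Of 19 genes of LXR signalling and efflux 4 rose, 6 fell and 9 did not pass. Neither direction exceeded the shares of all genes tested (35.8% and 38.8%). Ch25h, which makes an oxysterol, had 99.8, 62.2 and 72.9 CPM in the SGC0946+LPS libraries, against 0.434, 0.298, 0.271 and 0.428 CPM in the SGC0946 libraries. Nr1h3 (LXR alpha) had 24.9, 34.4 and 29.2 CPM with SGC0946+LPS, against 9.12, 8.12, 9.57 and 10.4 CPM with SGC0946 alone. Arl4c, an LXR target, fell, at 17.7, 12.9 and 15.4 CPM in the SGC0946+LPS libraries, against 151, 144, 132 and 166 CPM in the SGC0946 libraries. The largest adjusted p of the genes called was 8.60e-05, for Insig1.

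**Figure D3:**
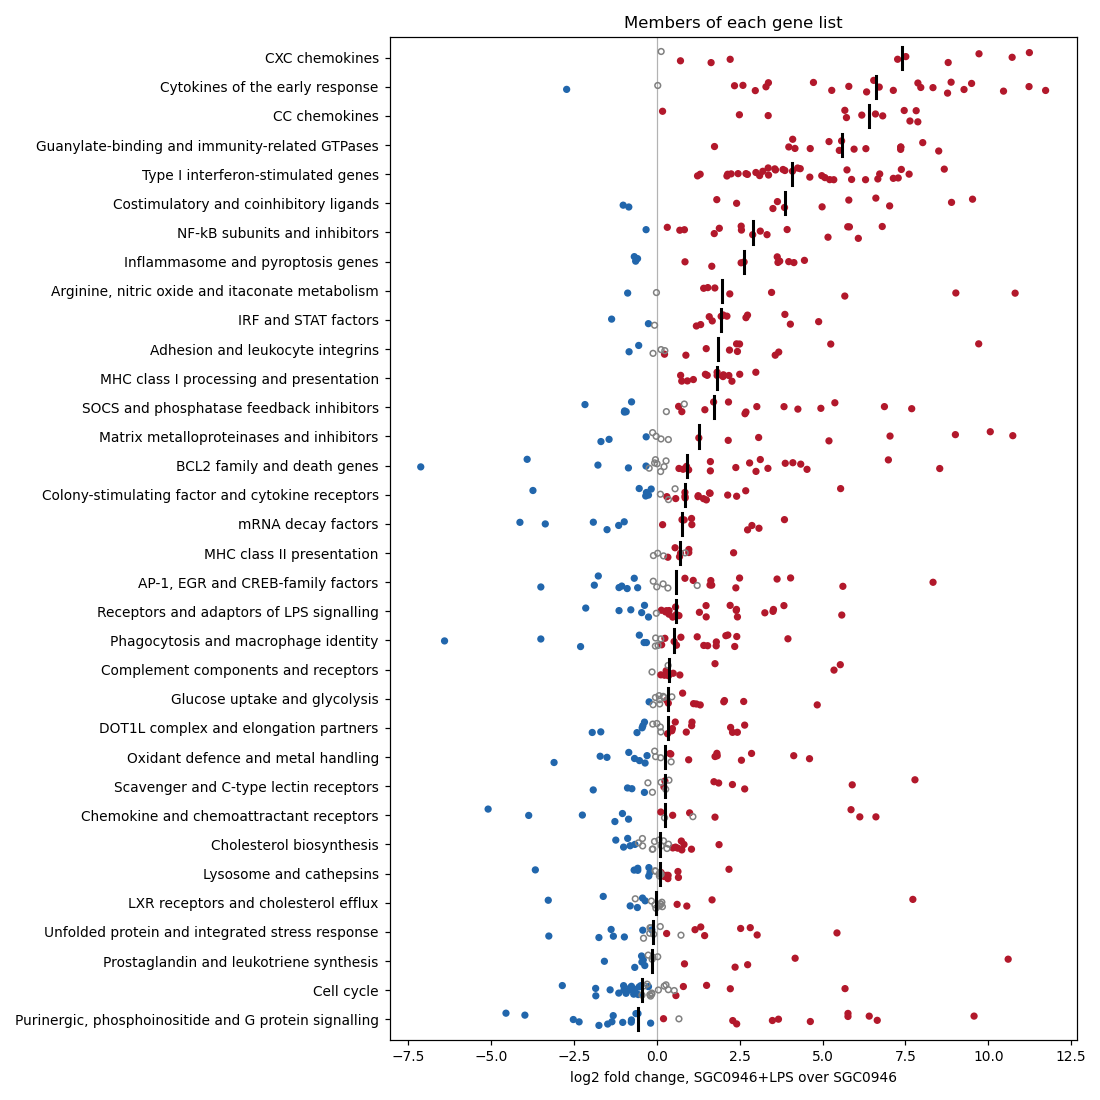
Log2 fold change of SGC0946+LPS over SGC0946 for the tested members of each of 34 gene lists; filled points were called (red higher, blue lower), open points were not, and black bars are medians. Chemokines, early cytokines, GTPases and interferon-stimulated genes lie to the right with medians from 4.09 to 7.39, and cell cycle genes have a median of -0.45.

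Of 25 genes of phagocytosis and identity 15 rose, 5 of which change sign under library totals, and 6 fell. The list's median log2 change was 0.52, or -0.22 with library totals. Cebpa, a factor that founds the myeloid lineage, had 1.34, 1.68 and 0.854 CPM in the SGC0946+LPS libraries, against 110.2, 117, 111 and 121 CPM in the SGC0946 libraries. Cebpd, its inflammatory relative, had 173, 197 and 122 CPM with SGC0946+LPS, against 10.7, 10.6, 10.5 and 10.7 CPM with SGC0946 alone. The lineage factor Cebpa was thus among the deepest fallers while Cebpd was higher in every library with LPS. In the MiT family, Mitf had 341, 392 and 363 CPM in the SGC0946+LPS libraries, against 60.5, 70.4, 68.6 and 74.9 CPM in the SGC0946 libraries. Tfec rose by 2.35 ± 0.06, but Tfeb, which drives lysosomal genes, had 2.44, 3.85 and 2.05 CPM with SGC0946+LPS, against 35.4, 38.7, 35.2 and 36.2 CPM with SGC0946 alone. Pparg, a lipid-sensing nuclear receptor, had 7.32, 6.74 and 8.54 CPM in the SGC0946+LPS libraries, against 38.1, 35.7, 42.1 and 31.9 CPM in the SGC0946 libraries. The largest adjusted p of these 6 was 2.39e-12, for Pparg. Lysosomal genes had a median log2 change of 0.08, with 9 of 22 risers, of which 8 change sign under library totals, and 7 fallers. Such counts are not far from the shares of all genes tested (35.8% and 38.8%). Ctsc, a dipeptidyl peptidase, rose by 2.17 ± 0.09, and Ctsd had 14830, 15160 and 13870 CPM with SGC0946+LPS, against 14920, 15060, 14650 and 16130 CPM with SGC0946 alone, with overlapping groups (adjusted p = 0.322).

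Of 22 genes of the unfolded protein and integrated stress responses 8 rose, 7 fell and 7 did not pass, near the shares of all genes tested (35.8% and 38.8%). Mouse 2 stood apart here: the list's median log2 response was -0.15 in mouse 1, 0.26 in mouse 2 and -0.15 in mouse 3. Chac1, an enzyme that degrades glutathione, named after its values were seen, had 0.791, 7.861 and 0.828 RPKM in the SGC0946+LPS libraries, against 1.04, 0.832, 1.582 and 0.469 RPKM in the SGC0946 libraries. Sesn2, a sestrin of the stress response, named likewise, had 3.059, 11.6 and 2.827 RPKM in the SGC0946+LPS libraries, against 11.66, 11.28, 11.28 and 12.83 RPKM in the SGC0946 libraries. In both genes SGC0946+LPS replicate 2 lay far above replicates 1 and 3. RPKM is computed with library totals, whereas the log2 changes and responses use the scaled counts. Their signs can therefore differ, as for Chac1 in mouse 1. Chac1 is among the 8 risers (log2 2.53 ± 0.57, adjusted p = 0.000466), but its groups overlap and its log2 response was 0.37 in mouse 1, 3.79 in mouse 2 and -0.17 in mouse 3. Sesn2 did not pass (adjusted p = 0.513). The cause was not tested. Ppp1r15a, which ends the block of translation, had 181, 195 and 189 CPM in the SGC0946+LPS libraries, against 24.9, 27.5, 24.2 and 29.9 CPM in the SGC0946 libraries. Eif2ak3 (PERK), the kinase that starts it, had 5.61, 3.61 and 5.98 CPM with SGC0946+LPS, against 46.4, 45.2, 47.5 and 52.5 CPM with SGC0946 alone. Hspa5 (BiP), the main chaperone of the endoplasmic reticulum, rose by 1.15 ± 0.08, Dnajb9, its co-chaperone, fell by 1.75 ± 0.12, and Hspa1b rose by 5.43 ± 0.24. Among BCL2 family and death genes 17 of 29 rose and 5 fell. Cflar, which blocks caspase 8, had 2383, 2589 and 2565 CPM in the SGC0946+LPS libraries, against 115, 128, 132 and 122 CPM in the SGC0946 libraries. Bcl2a1b, a survival member of the family with near-identical copies, rose by 3.35 ± 0.06. Bmf, a death-promoting member, had 0.366, 0.120 and 0.171 CPM with SGC0946+LPS, against 29.6, 35.0, 28.3 and 37.99 CPM with SGC0946 alone, a log2 change of -7.13 ± 0.34 (-7.75 without SGC0946+LPS replicate 1). Pmaip1 (Noxa), likewise death-promoting, had 10.6, 10.1 and 10.8 CPM in the SGC0946+LPS libraries, against 40.4, 33.8, 32.5 and 37.4 CPM in the SGC0946 libraries. Gadd45b rose by 4.10 ± 0.10 while its relative Gadd45a fell by 3.92 ± 0.12. Bcl2l11 (Bim) did not pass (log2 -0.04 ± 0.08). Adjusted p was 2.92e-11 (Dnajb9) or less for the genes called.

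Cell cycle genes fell more often than they rose, at 18 against 5 of 35 (median log2 change -0.45). Over all genes tested 38.8% fell and 35.8% rose. Cdc25b, a phosphatase of entry into mitosis, had 26.7, 25.9 and 24.1 CPM in the SGC0946+LPS libraries, against 106, 81.8, 99.4 and 83.6 CPM in the SGC0946 libraries. E2f2 had 2.44, 1.92 and 1.88 CPM with SGC0946+LPS, against 18.9, 12, 16.4 and 13.9 CPM with SGC0946 alone, and Cdk2 fell by 1.41 ± 0.12. Ccnd2 (cyclin D2) went against the list, at 735, 771 and 816 CPM in the SGC0946+LPS libraries, against 14.8, 11.4, 18.1 and 16.4 CPM in the SGC0946 libraries, and Ccne1 rose by 2.21 ± 0.23 (largest adjusted p of the 5 genes 1.17e-08). Mki67, the usual marker of proliferation, did not pass, with 338, 233 and 394 CPM with SGC0946+LPS, against 288, 199, 326 and 198 CPM with SGC0946 alone; replicate 2 was lowest with LPS, and replicates 2 and 4 were lowest without it. Its log2 change was 0.34 ± 0.18 (adjusted p = 0.0962), or 0.53 (0.0151) without SGC0946+LPS replicate 2 and 0.49 (0.0213) without SGC0946 replicate 3. Without replicate 2 in all groups it was 0.43 (0.015), and without replicates 2 and 4 it was 0.25 (0.047). Mki67 was higher with LPS in each of mice 1, 2 and 3, and with the mouse as a block the adjusted p was 0.0644 over all groups and 0.00141 (change 0.24) over the compared groups alone.

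The inhibitor's target, Dot1l, named here for that reason, had 62.2, 49.2 and 56.9 CPM in the SGC0946+LPS libraries, against 53.8, 44.9, 64.7 and 44.0 CPM in the SGC0946 libraries, and its log2 change was 0.12 ± 0.14 (adjusted p = 0.47). SGC0946 blocks the enzyme and not its mRNA, so this level is no check of inhibition. Of 21 genes of DOT1L complexes and elongation partners tested 11 rose, of which 4 change sign under library totals, and 6 fell. Aff1, a scaffold of the super elongation complex, had 846, 907 and 901 CPM with SGC0946+LPS, against 169, 187, 188 and 184 CPM with SGC0946 alone. Ell2, an elongation factor of the same complex, had 295, 246 and 328 CPM in the SGC0946+LPS libraries, against 48.0, 38.9, 58.3 and 39.9 CPM in the SGC0946 libraries. Mllt6, a relative of the DOT1L partner MLLT10, had 583, 685 and 550.2 CPM with SGC0946+LPS, against 109, 118, 109 and 113 CPM with SGC0946 alone. Brd2, a reader of acetylated histones, rose by 2.22 ± 0.05. Ell fell where Ell2 rose, at 9.88, 10.7 and 8.71 CPM in the SGC0946+LPS libraries, against 37.8, 37.9, 37.9 and 38.8 CPM in the SGC0946 libraries. Hexim1, which holds the elongation kinase P-TEFb inactive, had 19.8, 14.7 and 16.7 CPM with SGC0946+LPS, against 59.2, 56.3, 51.4 and 54.2 CPM with SGC0946 alone, and the kinase gene Cdk9 fell by 0.60 ± 0.06. Supt5, a subunit of the pausing and elongation factor DSIF, averaged 153.3 ± 6.67 CPM in the SGC0946+LPS libraries and 153.3 ± 5.73 CPM in the SGC0946 libraries (SD, n = 3 and 4) and did not pass. The largest adjusted p of the genes called was 2.41e-08, for Cdk9.

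Of 25 signalling genes of the purinergic, phosphoinositide and G protein list, 14 fell and 10 rose (median log2 change -0.57). Over all genes tested 38.8% fell and 35.8% rose, so the risers of this list are near that share and its fallers above it. Adora2a, the adenosine receptor that curbs inflammation, had 112, 133 and 99.2 CPM in the SGC0946+LPS libraries, against 0.0868, 0.224, 0.0903 and 0.143 CPM in the SGC0946 libraries. Pde4b, which breaks down cyclic AMP, had 344, 389 and 352 CPM with SGC0946+LPS, against 12.5, 17.1, 10.2 and 17.9 CPM with SGC0946 alone. Rasgrp1, an activator of Ras, had 53.7, 57.5 and 60.5 CPM in the SGC0946+LPS libraries, against 0.174, 0.447, 0.632 and 0.927 CPM in the SGC0946 libraries, whereas its relative Rasgrp3 had 6.34, 4.09 and 4.10 CPM with SGC0946+LPS, against 89.9, 72.7, 77.4 and 71.8 CPM with SGC0946 alone. Rapgef2 rose by 3.48 ± 0.07. Inpp5d (SHIP1), which removes a phosphate from membrane inositides, had 62.5, 45.1 and 63.9 CPM in the SGC0946+LPS libraries, against 286, 304, 274 and 295 CPM in the SGC0946 libraries. P2rx7, the ATP receptor upstream of NLRP3, had 40.3, 50.03 and 41.0 CPM with SGC0946+LPS, against 134, 162, 133 and 162 CPM with SGC0946 alone while Nlrp3 itself was higher. Adjusted p was 1.07e-12 (P2rx7) or less for these 7.

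Of the 12 genes with the largest rise (among those averaging at least 20 CPM with LPS), 9 are described above. Edn1, which encodes the vessel-constricting peptide endothelin 1, had 3815 counts in the SGC0946+LPS libraries and 3 in the SGC0946 libraries, a ratio of 2845 (95% counting interval 972.9 to 13804). Mir155hg, the host transcript of the inflammatory microRNA miR-155, had 2129 counts in the SGC0946+LPS libraries and 2 in the SGC0946 libraries, a ratio of 2382 (658.6 to 19680). Of the 12 deepest fallers, Bmf, Cebpa and Cxcr4 are described above. Sesn1, a stress-inducible inhibitor of mTORC1, had 6.22, 5.17 and 5.64 CPM in the SGC0946+LPS libraries, against 311, 329.7, 302 and 334 CPM in the SGC0946 libraries. Cd300lb, an activating receptor of myeloid cells, had 3.78, 3.61 and 4.10 CPM with SGC0946+LPS, against 209, 183, 207 and 202 CPM with SGC0946 alone. Slc26a11, a sulfate transporter, had 3.42, 3.37 and 3.76 CPM in the SGC0946+LPS libraries, against 116, 134, 106 and 129.7 CPM in the SGC0946 libraries. None of the 3 differed much among libraries of the same group. Cnr2, the cannabinoid receptor of immune cells, had 0.976, 0.361 and 0.171 CPM with SGC0946+LPS, against 55.7, 51.6, 53.8 and 58.7 CPM with SGC0946 alone, a log2 change of -6.65 ± 0.17 (-7.55 without SGC0946+LPS replicate 1). Lpar5, a receptor for lysophosphatidic acid, had 0.488, 0 and 1.02 CPM in the SGC0946+LPS libraries, against 22.6, 21.5, 21.8 and 20.7 CPM in the SGC0946 libraries, a log2 change of -5.56 ± 0.26 (-4.90 without SGC0946+LPS replicate 2 and -6.42 without replicate 3). Lyl1, a hematopoietic helix-loop-helix factor, had 2.20, 1.92 and 1.54 CPM with SGC0946+LPS, against 78.9, 79.4, 73.8 and 75.0 CPM with SGC0946 alone. Fam214a, Zfp395 and Tmem86a fell by 6.44, 5.75 and 5.14 on the log2 scale. The adjusted p was 2.10e-14 (Lpar5) or less for these 9 fallers.

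Markers of other cell types were looked at as whole lists, since in bulk RNA fewer cells of a type and less RNA per cell cannot be told apart. All 8 macrophage markers were present. Their summed level ran from 15571 to 19134 CPM in the SGC0946+LPS libraries and from 13007 to 17533 CPM in the SGC0946 libraries, with 6 members up and 1 down; 4 of the 6 change sign under library totals, and the list's median log2 change is then -0.33, against 0.42 with the scaling used. Spi1 (PU.1) rose by 1.41 ± 0.07, Adgre1 (F4/80) by 0.72 ± 0.08 (-0.02 with library totals), and Csf1r fell by 0.32 ± 0.12, a call lost without SGC0946+LPS replicate 1 (adjusted p = 0.0803) or 3 (0.145) and without SGC0946 replicate 2 (0.0814) or 4 (0.0744). Neutrophil and precursor markers summed to 161.2 to 209.1 CPM in the SGC0946+LPS libraries and 78.3 to 107.2 CPM in the SGC0946 libraries, with Mpo and Ly6g at 0 in all 7. Of the 7 neutrophil markers tested 4 rose, 1 (Ltf) fell and 2 did not pass. Among the risers, Csf3r had 124, 157 and 110.2 CPM in the SGC0946+LPS libraries, against 46.4, 70.8, 42.1 and 60.7 CPM in the SGC0946 libraries. S100a9, another riser, lost its call without replicate 1 (adjusted p of edgeR's test 0.0851) or replicate 3 (0.0784) in all groups. T and natural killer cell markers summed to 46.3 to 55.3 CPM with LPS, against 14.3 to 19.3 CPM without, with most of the gap in Lck, a kinase of T cell receptor signalling, at 33.9, 39.0 and 39.8 CPM with SGC0946+LPS, against 0.174, 0.0745, 0.632 and 0.143 CPM with SGC0946 alone (log2 7.22 ± 0.32, or 8.07 without SGC0946 replicate 3); Gzma, Prf1 and Nkg7 were at 0 in all 7. Stromal markers summed to 9.74 to 10.46 CPM with LPS, against 1.42 to 1.85 CPM without, chiefly through Pdgfrb, at 8.66, 7.70 and 7.86 CPM in the SGC0946+LPS libraries, against 0.434, 0.447, 0.271 and 0.428 CPM in the SGC0946 libraries. With LPS against without, megakaryocyte markers were at 118.2 to 132.5 CPM against 75.6 to 86.8 CPM, dendritic cell markers at 55.4 to 73.8 CPM against 69.5 to 87.01 CPM, mast cell markers at 7.46 to 12.3 CPM against 11.1 to 23.7 CPM, and B cell markers at 14.9 to 16.4 CPM against 18.4 to 21.03 CPM, with Pax5, Ebf1 and Blk at 0. Of the 2 megakaryocyte markers that rose, 1 changes sign under library totals. That list's median log2 change was -0.20, or -0.93 with library totals. Its member Pf4 averaged 125.3 RPKM in the SGC0946+LPS libraries and 130.7 RPKM in the SGC0946 libraries. Erythroid markers stayed under 1 CPM in sum in every library. The part of these markers in the gene lists above was not tested.

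The response was set beside that of macrophages grown with DMSO. With DMSO, 4253 genes rose (35.4%) and 4650 fell (38.7%), and 8223 genes were called in the same direction in both arms, which is 91.8% of those called with SGC0946 and 92.4% of those called with DMSO; 6 were called in opposite directions. Across the 12013 genes the 2 responses had a Pearson r of 0.972 and a Spearman rho of 0.966, a description over genes that are not independent replicates. The difference between the responses was within 0.5 on the log2 scale for 89.96% of genes and within 1 for 97.2%. Its median size was 0.12, against a median approximate standard error, taken from F, of 0.16. A test of the difference itself called 1 gene, or 0.00832% of those tested, at an adjusted p under 0.05; 835 genes (6.95%) had an unadjusted p under 0.05.

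That gene was Lcn2, which encodes lipocalin 2, a protein that withholds iron from bacteria by binding their siderophores. Lcn2 had 8.91, 13.6 and 11.3 CPM in the SGC0946+LPS libraries, against 0.174, 0.298, 0.18 and 0.356 CPM in the SGC0946 libraries. In the other arm it had 16.9, 17.8 and 18.96 CPM in the DMSO+LPS libraries, against 2.18, 3.12, 3.66 and 3.68 CPM in the DMSO libraries. Every library of the SGC0946 arm lay below every library of the DMSO arm in the same LPS state, by a wider margin without LPS. The log2 change with LPS was 5.38 ± 0.25 in the SGC0946 arm and 2.49 in the DMSO arm, a difference of 2.89 (edgeR's interaction test, adjusted p = 0.000395). The approximate 95% interval of that difference, taken from F, was 2.16 to 3.62. It is too narrow, because counting error in the SGC0946 arm alone spans more. There Lcn2 had 252 counts with LPS and 13 without, a ratio of 43.37 (95% counting interval 24.91 to 82.59). Leaving out replicate 2 or replicate 3 in all groups gave a difference of 2.79 or 2.74 with adjusted p = 0.0642 or 0.174, and DESeq2's Wald test called 13 genes higher and 21 lower. With the mouse as a block 3 genes were called higher and 3 lower, and without SGC0946+LPS replicate 2 5 were higher and 6 lower. Labels mark DMSO replicates 1 to 3 as reanalyzed and no library with LPS or SGC0946, so that mark cannot be told apart from part of this difference.

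For the members that lead the lists the difference is given with an approximate 95% interval, taken from F as above. Such intervals can be unreliable where the difference is near 0 or a group holds few counts. They do not bound the differences that these libraries leave possible. The difference (SGC0946 arm minus DMSO arm, log2, 95% interval) was 0.35 (-0.13 to 0.83) for Tnf, -0.20 (-0.80 to 0.39) for Cxcl10, -0.02 (-0.50 to 0.46) for Acod1, -0.20 (-1.14 to 0.74) for Nos2 and -0.15 (-0.71 to 0.40) for Gbp5. It was wide for Il6, at 0.36 (-1.96 to 2.68), and for Il12b, at -0.10 (-4.38 to 4.18). Among fallers it was -0.54 (-1.16 to 0.08) for Cebpa and -0.06 (-0.66 to 0.54) for Cxcr4. Some members missed the threshold with intervals that do not reach 0. Lck had a difference of 2.29 (0.99 to 3.59) (adjusted p = 0.214), Irf4 of 1.19 (0.58 to 1.81) (adjusted p = 0.175) and Zfp36l2 of -0.59 (-0.83 to -0.34) (adjusted p = 0.0907). Among the pathway lists the medians of the SGC0946 and DMSO arms were 6.63 and 6.83 for early cytokines, 4.09 and 3.88 for interferon-stimulated genes and 2.89 and 2.92 for NF-kB genes. The widest gaps between medians among these lists were in purinergic and G protein signalling, at -0.57 with SGC0946 and -0.12 with DMSO, and in CXC chemokines, at 7.39 and 7.79. Taken gene by gene, the median difference was smaller, at -0.036 in the former list and -0.15 in the latter. Marker lists with few tested genes lay farther apart, such as the 7 dendritic cell markers at -0.20 with SGC0946 and 1.06 with DMSO and the 7 neutrophil markers at 1.06 and 0.40. Their median differences gene by gene were -0.515 for the dendritic cell markers and 0.113 for the neutrophil markers. Of the members of all lists, the difference was called for Lcn2, a neutrophil marker.

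**Figure D4:**
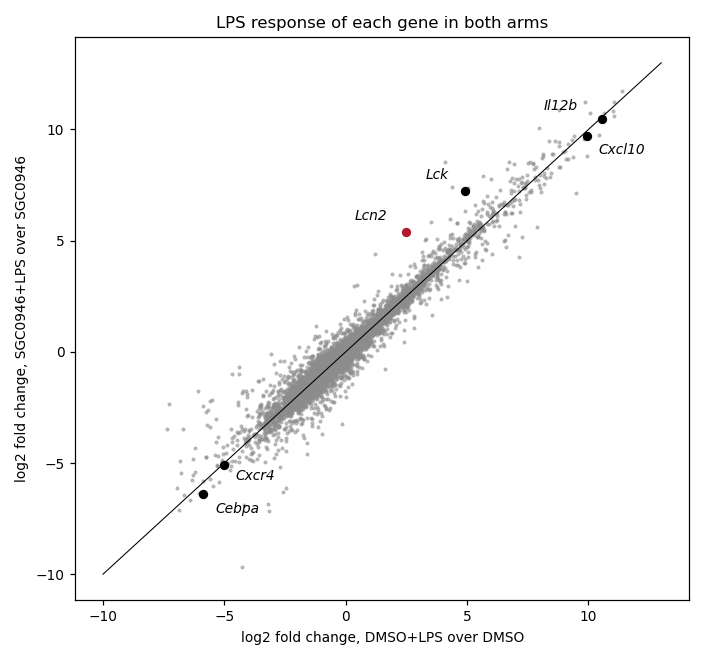
Log2 fold change with LPS of each gene tested, in the SGC0946 arm (vertical) against the DMSO arm (horizontal); the line marks equal change. Points follow the line, and Lcn2, at 5.38 against 2.49, is the gene whose difference passed the test.

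The 3 mice gave close values for most risers. Over 1470 genes that rose 2-fold or more and averaged at least 20 CPM with LPS, the highest SGC0946+LPS library exceeded the lowest by a median factor of 1.144, and by less than 1.5 for 95.51% of them; in the DMSO+LPS libraries the median was 1.097 and the share 98.37%. A factor of 2 or more separated the libraries for 15 genes, which are named by this ordering and so after their values were seen. The widest was Timd4 (TIM-4), a receptor for phosphatidylserine on dying cells, at 62.6, 5.05 and 95.5 CPM in the SGC0946+LPS libraries, against 0.782, 0, 1.17 and 0.499 CPM in the SGC0946 libraries. In the DMSO arm it had 29.7, 2.98 and 48.8 CPM in the DMSO+LPS libraries, against 0.503, 0, 0.557 and 0.675 CPM in the DMSO libraries. Mouse 2 was the lowest in each arm. Il12b, described above, was highest in mouse 2 in both arms, at 158.8, 582.8 and 156.2 CPM in the DMSO+LPS libraries. Other genes were set apart in the SGC0946+LPS library of mouse 2 and not in its DMSO+LPS library. Asns, asparagine synthetase, had 43.0, 103.4 and 43.6 CPM in the SGC0946+LPS libraries, against 21.5, 25.3, 29.7 and 17.8 CPM in the SGC0946 libraries. In the DMSO+LPS libraries it had 49.2, 48.1 and 36.5 CPM. Mthfd2, of mitochondrial folate metabolism, had 123.2, 276.3 and 130.8 CPM in the SGC0946+LPS libraries, against 112.4, 91.0 and 103.1 CPM in the DMSO+LPS libraries. Both are known targets of the stress factor ATF4, and a part of ATF4 in these values was not tested. Its own gene Atf4 had 256.9, 435.6 and 259.6 CPM in the SGC0946+LPS libraries, against 129.1, 134.1, 140.4 and 105.0 CPM in the SGC0946 libraries. In the DMSO+LPS libraries Atf4 had 273.1, 241.1 and 232.5 CPM. Of the 15 genes, 8 were highest in the same mouse in the DMSO+LPS libraries.

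**Figure D5:**
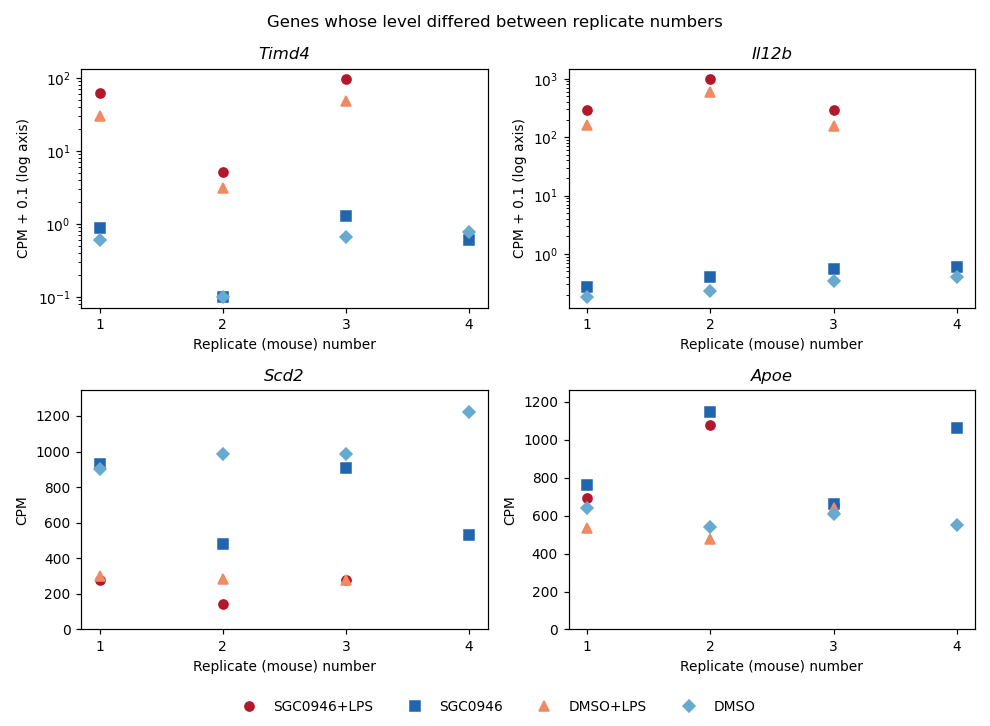
CPM by replicate number, which is the mouse, in the 4 groups, for Timd4 and Il12b (plus 0.1, log axis) and for Scd2 and Apoe (linear axis). With LPS, mouse 2 is lowest for Timd4 and highest for Il12b in both arms, while Scd2 and Apoe separate replicates 1 and 3 from 2 and 4 in the SGC0946 arm.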

How the data were processed

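RNA was sequenced from macrophage cultures, 50 bp single end, per the labels' protocols. Reads were aligned with STAR 2.5.2b to mm10, with SAMtools 1.3.1, per the submitters' processing notes; how reads were counted, on which annotation and with what use of strand, is not given in the sources used here. Read counts per RefSeq transcript were deposited by the authors, as were, for the same transcripts, RPKM values (reads per kilobase and 1000000 reads of the library), which were recomputed from the counts for 780 transcripts and differed by at most 5.41e-05. Of 35745 transcripts, 305 without a gene symbol (1.17% of counts) were left out, and the transcript with the highest total count stood for each of 24342 symbols, which kept 57.3% of counts. The gene tables of the 20 libraries summed to 8.17 to 13.33 M counts. Counting intervals cover counting error only.

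Counts were tested with edgeR 4.0.16 (quasi-likelihood test, TMM scaling, minimum count 10, R 4.3.3) on all 20 libraries in 6 groups without a block, so that all groups share one estimate of the spread (14 residual degrees of freedom). All adjusted p values are Benjamini-Hochberg values of that fit over 12013 genes unless a tool is named. The test was checked on simulated data. Tables were handled with Python 3.11.15, pandas 2.3.3, SciPy 1.17.1 and NumPy 2.4.6. Coordinates and promoters are from RefSeq tables of GRCm38.p6, matched by symbol.

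A column of the deposited sample sheet names the mouse, and equal replicate numbers are equal mice. Over 8252 genes, deviations from the group means correlated at 0.216 to 0.711 in 18 same-number pairs of libraries (0.458 to 0.709 in 3 pairs of the SGC0946 arm) and at -0.577 to 0.291 otherwise, so the numbers pair the libraries. No 2 libraries agreed within sampling noise.

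The members and gene lists were chosen with earlier results of these data known. Named genes are the 12 largest changes in each direction among called genes whose groups do not overlap and that average at least 20 CPM in the higher group, up to 4 called members of each list per direction with the smallest p, and the most abundant member not called; exceptions are marked, and some genes that the rule names are not reported here. The difference between arms was tested as an interaction. Alternatives were library totals, upper quartile and DESeq2 1.42.0 size factors, 2 other filters, DESeq2's Wald test, limma-voom (limma 3.58.1), the mouse as a block, leaving out libraries, only the compared groups, other choices of transcript and equal depth.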

Additional observations from a re-analysis of the deposited data

Results flagged for a closer look

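The search covered 209 groups of 4 libraries, the SGC0946 libraries of 207 named genes and the DMSO libraries of a few of them. Of these groups 13, all of SGC0946 libraries, held a library whose gap to its nearest neighbour took most of the range. Chance alone marks about 1 in 20 such groups. The library was replicate 1 in 2 cases, replicate 2 in 3, replicate 3 in 4 and replicate 4 in 4. High libraries were replicate 2 for Ifnb1 (0.149 CPM, the others at 0), replicate 4 for Cxcl10 (19.46 CPM), replicate 3 for Klf6 (438.1 CPM), replicate 3 for Zc3h12c (16.16 CPM), replicate 3 for Serpinb2 (0.09026 CPM, the others at 0), replicate 4 for Cxcr4 (187.2 CPM), replicate 1 for Tfec (41.16 CPM) and replicate 4 for Ell (38.78 CPM). Low libraries were replicate 1 for Tnfsf15 (3.647 CPM), replicate 2 for Rsad2 (142 CPM), replicate 2 for Pla2g4a (10.28 CPM), replicate 4 for Sod2 (43.34 CPM) and replicate 3 for Pdgfrb (0.2708 CPM). In all 13 the direction of the LPS response is the same with and without that library. The LPS response of Lcn2 differed between the arms by 2.888 on the log2 scale (SGC0946 arm minus DMSO arm), by edgeR's interaction test (adjusted p = 0.000395).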

How the results depend on the processing

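With library totals as the only scaling, 1977 genes were higher and 8699 lower in the SGC0946 arm (1179 and 4966 by 2-fold or more), and 1980 and 8674 in the DMSO arm (1149 and 4901). By the stricter rule of an adjusted p under 0.05 and 2-fold, 1947 were higher and 2175 lower with SGC0946 and 1910 and 2150 with DMSO. Leaving out 1 library, or 1 replicate number in all groups, gave 4011 to 4316 higher and 4235 to 4724 lower genes in the SGC0946 arm, and leaving out replicates 2 and 4 gave 3957 and 4173. The difference between the arms, 1 gene higher and 0 lower, became 4 and 7 with no filter on low counts, 13 and 21 with DESeq2's Wald test, 0 and 1 without replicates 2 and 4, and 2 lower at equal depth. With the replicate block, which pairs libraries of a mouse, it was 3 and 3, and with the block on the compared groups alone 3 and 0 (1 and 0 on those groups without the block); leaving out 1 library or 1 replicate number gave 0 to 5 higher and 0 to 6 lower. The block over all groups changed no call of the named genes but that of Jun; over the compared groups alone it also called Mki67 (0.2433, adjusted p = 0.00141) and Lyz2 (0.1515, adjusted p = 0.0202). Library totals turned the sign of Osm (-0.7125), Cxcl14 (-0.6115), Jun (-0.555), Aldoa (-0.6573), Ifi30 (-0.7195), C1qb (-0.2494), Dot1l (-0.6222), Adgre1 (-0.0175) and Lyz2 (-0.7062), and upper quartile scaling that of Aldoa (-0.2156), Ifi30 (-0.2774) and Lyz2 (-0.2652). Aldoa, Ifi30 and Lyz2, which had not passed, were called lower under both scalings. A further 9 named genes that had not passed kept their sign and were called lower under both (Tlr4, Stat6, Asl, Alox5ap, Apoe, Ctsd, Bcl2l11, Supt5 and Cd4). Under library totals Cd74, Srebf2, Insig1, S100a9 and Batf3 lost their call. The Lcn2 difference passed under 29 of 32 alternatives (2.72 to 3.11 on the log2 scale) and missed without replicate 2 (2.785), replicate 3 (2.743) or both 2 and 4 (3.109). Chac1, whose rise lay mainly in mouse 2, and Sesn2 were not followed through the alternatives and are left out of the next count. Of 190 named genes called, 181 kept direction and call under all 32 alternatives. The cause of these changes was not tested. Genes with fewer than about 10 counts a library were not tested, and 3 or 4 libraries a group limit what the difference can show.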
